A study of Homo sapiens with 12 samples.

Results

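The genes described here encode the enzymes that attach ubiquitin to proteins and those that remove it. They were taken by symbol: ubiquitin-conjugating enzymes (UBE2), ligases of the UBE3, F-box (FBXO, FBXL, FBXW), RNF and TRIM groups, cullins (CUL) and ubiquitin-specific proteases (USP). Of 350 protein-coding genes with such a symbol, 109 were overlapped by at least 1 of the 9958 deposited peak regions, and 213 regions did so. Of these, 106 had been called in control cells and 107 in knockdown cells. The values come from m7G meRIP-seq, in which RNA fragments carrying 7-methylguanosine are immunoprecipitated and sequenced. All libraries were made from polyadenylated RNA of the monocytic leukemia line THP-1, made adherent with the phorbol ester PMA at 100 ng/ml for 48 h. NC was the control and KD carried a short hairpin against METTL1, the catalytic subunit of an m7G methyltransferase. Each had 3 immunoprecipitated (IP) libraries and 3 libraries named IN, taken here as the input, which makes 4 groups of 3.

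Ubiquitin is activated by an E1 enzyme, passed to an E2 conjugating enzyme (the UBE2 family) and transferred to a substrate with the help of an E3 ligase. RING ligases, among them most RNF and TRIM proteins, bring a charged E2 next to the substrate, while the UBE3 proteins are HECT ligases that carry ubiquitin themselves. Cullins are scaffolds of multi-subunit ligases, whose F-box subunits choose the substrate. The USP proteins form the largest group of deubiquitinases. Together these enzymes set protein turnover, and in macrophages they also control innate immune signalling. 7-methylguanosine forms the cap at the 5′ end of mRNA and is also found inside tRNA, rRNA and some mRNAs.

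An IN library held 907024 to 1105477 reads summed over all regions and an IP library 1476384 to 1888972. Reads under overlapping peaks count more than once in these sums. The precision of each value is set by the reads in its own region. Nothing in the labels says that the 3 libraries of a group came from separate cultures, so p values measure only the spread between these libraries. The targeted gene had no region and could not be checked. The NC and KD libraries also differed in marker genes of cell types. Of 30 macrophage and monocyte markers 15 had a region, and their summed level was 3686 to 4137 CPM (reads scaled to the library total) in NC IN, 2740 to 3013 in NC IP, 7502 to 7570 in KD IN and 5011 to 5467 in KD IP. Of 20 markers of HEK293, a human embryonic kidney line, 15 had a region, with 15734 to 16072 CPM in NC IN, 14292 to 15354 in NC IP, 2954 to 3527 in KD IN and 2228 to 2551 in KD IP. NEFM alone had 7645 CPM in NC IN and 1.96 in KD IN. Most of what KD libraries held of that list came from TCEAL9 (6005 CPM in NC IN, 2598 in KD IN) and NEFH. NEFH went the other way, with 271 CPM in NC IN and 591 in KD IN, and SOX12 fell only from 106 to 64.7. Of the epithelial markers, DSP had 1363 reads in NC IN and 3 in KD IN, and PPL had 17 and 67. LYZ and ITGAM were below 4 CPM in each group, and no lymphoid or erythroid marker had a region. Every difference between KD and NC below moves with these markers, so the knockdown and a difference in the cells cannot be told apart.

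The RefSeq start of 87 of the 109 genes was available, and 32 regions of 27 genes reached into the 30 bases on either side of it. Starts are shown for FBXW4, the member with the highest measured ratio of IP to input, for TRIM44, USP11, USP27X and UBE2J2, whose values the results below turn on, and for FBXO30, which has a peak at its start and no call. Each sequence runs 5′ to 3′ on the strand of the gene, on GRCh38.p14, with 30 bases before the annotated start and 30 from it. Capitals mark the bases inside the deposited peak, with its deposited start and end both counted as inside.
FBXW4, chr10:101695141-101695200, minus strand: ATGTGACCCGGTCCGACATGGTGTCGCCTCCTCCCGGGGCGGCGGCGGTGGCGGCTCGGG
TRIM44, chr11:35662745-35662804, plus strand: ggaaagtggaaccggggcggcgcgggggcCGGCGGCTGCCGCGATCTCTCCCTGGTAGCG
USP11, chrX:47232979-47233038, plus strand: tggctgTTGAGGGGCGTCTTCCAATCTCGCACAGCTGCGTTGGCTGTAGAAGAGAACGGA
USP27X, chrX:49879454-49879513, plus strand: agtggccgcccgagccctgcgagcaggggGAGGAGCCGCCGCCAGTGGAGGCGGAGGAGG
UBE2J2, chr1:1273825-1273884, minus strand: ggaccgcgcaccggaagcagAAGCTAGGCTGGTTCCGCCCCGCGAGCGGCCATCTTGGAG
FBXO30, chr6:145814766-145814825, minus strand: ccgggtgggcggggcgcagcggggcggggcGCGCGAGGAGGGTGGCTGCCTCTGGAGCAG
The FBXW4 peak covered the whole window, and those of TRIM44, USP27X and FBXO30 began at the annotated start or 1 base before it. Over the 27 genes, the first 50 bases from the start had a median GC content of 72%, against 60% over all 27305 RefSeq start windows, and a median G content of 44% against 30%. Those windows include genes without a peak. Member genes whose start no peak reached had low and high GC content (TRIM2 42%, FBXL14 88%) and were not compared. The difference is therefore not shown to be particular to starts that a peak reached. Of 154 member regions on the strand of a gene with a known start, 25 (16.2%) began within 30 bases of it and 8 (5.19%) exactly on it, against 13.5% and 4.12% of all such regions. All 8 were on the minus strand, and the plus-strand peaks of TRIM44, USP27X and FBXW8 began 1 base before the start. The deposited starts may therefore be numbered 1 base low. These 3 genes' peaks would then begin on the start, and the first capital of each plus-strand sequence would lie outside the peak. The shares exactly on the start would also be too low. Peak ends lay on a grid: 88.7% of member peak lengths and 84.0% of all lengths were within 2 bases of a multiple of 30, so an end is known only to that step.

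The 213 regions were spread over the families. The E2 enzymes had 23 regions in 12 of 36 genes, the F-box proteins 43 in 22 of 63, the RNF ligases 45 in 22 of 85, the TRIM ligases 47 in 23 of 77 and the USP proteases 51 in 27 of 77. CUL7 was the only cullin with a region, of 8, and UBE3A and UBE3B were the only UBE3 genes, of 4. RNF123 had most peaks (7), followed by USP35 (6) and by FBXL19, RNF10 and TRIM56 (5 each). The median peak was 181 bases long. In all, 100 regions of 56 genes had enough reads to be tested (46.9%, against 51.3% of all regions). Because the 2 peak sets overlap, these 100 stood for 70 separate stretches. Peaks were assigned to genes by position alone, and of 215 overlaps 71.6% lay on the strand of the gene, 7.44% on the other strand and 20.9% on genes of unknown strand. The opposite ones matter for USP35, where 4 tested regions lay on the strand of GAB2, and for TRIM14, where both tested plus-strand regions lay on that of NANS. Below, such regions are given with the name of the other gene.

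Member peaks gathered at the ends of genes, as peaks did in general. With each gene body cut into 10 equal deciles from the 5′ end, the first decile held 78 of 215 overlaps (36.3%, 95% exact binomial interval 29.8 to 43.1) and the last decile 59 (27.4%, 21.6 to 33.9). Over all gene overlaps the shares were 33.0% and 29.2%. The ninth decile held 10.7% and each other decile between 2.33% and 5.12%. The intervals treat overlaps as independent, although peaks overlap each other and some genes have several, so they are too narrow. Positions are along the gene with introns, and exons were not separated. The 5′ end was taken on the strand of the peak. The 7.44% of overlaps on the other strand therefore count from the 3′ end of the named gene.

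**Figure D1:**
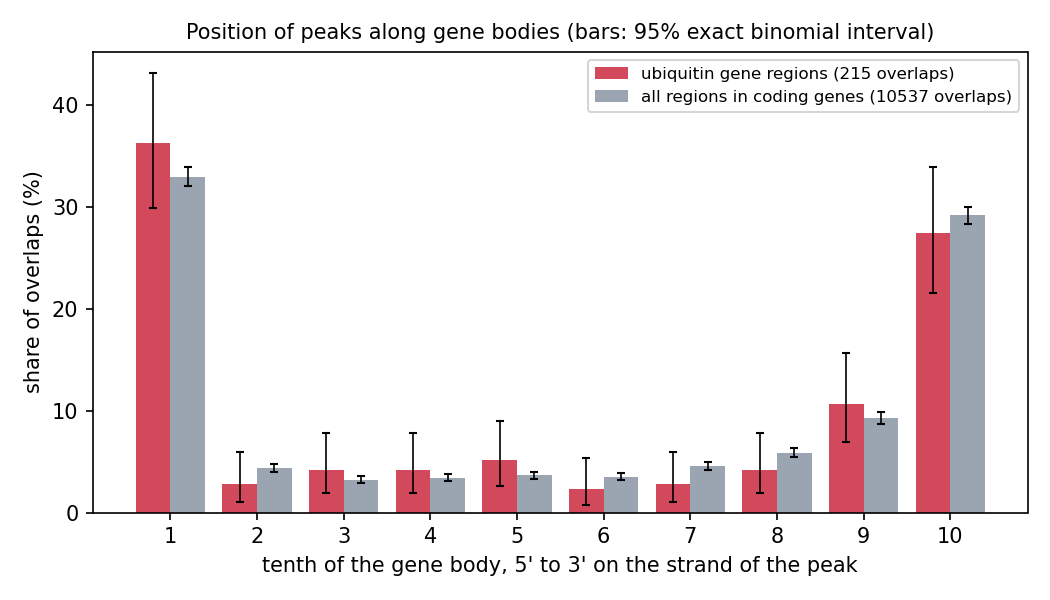
Share of peak overlaps (percent) in each decile of the gene body from the 5′ end on the strand of the peak, for 215 overlaps of the ubiquitin genes and for 10537 overlaps of all coding genes; bars are shares and error bars 95% exact binomial intervals. The first decile (36.3% and 33.0%) and the last (27.4% and 29.2%) stand above the rest in both sets.

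Calls of 1 peak set often had no counterpart in the other. Of the 109 genes, 47 had peaks in both sets, 28 in NC alone and 34 in KD alone. By region, 86 of 213 (40.4%, 33.7 to 47.3) shared 1 base or more with a same-strand peak called in the other condition, beside 38.9% of all regions, and 33.8% overlapped by 50% of both peaks (29.2% of all). Among the upper 50% of each set by the authors' fold, 32 of 114 (28.1%, 20.1 to 37.3) overlapped a remaining peak, against 20.4% of all. Peaks were called per group and not per library, so these shares carry no replicate error and were not tested. The intervals treat regions as independent, but shared peaks enter from both sets and the 213 regions form 167 separate stretches. They are therefore too narrow. A gene with a peak in 1 set alone was not thereby different in reads. FBXW4 had a peak in the KD set alone and a high ratio of IP to input in both.

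IP against input within each condition asked where the antibody enriched RNA relative to other peak regions, since scaling rests on those regions alone. Adjusted p values below are from edgeR's quasi-likelihood F test, adjusted over all 5113 tested regions after Benjamini and Hochberg and called under 0.05. In NC, 45 of 100 member regions passed, against 46.7% of all tested regions. The 25 higher in IP lay in 13 genes and the 20 lower in 14 (all regions 22.7% higher and 24.0% lower). In KD, 45 passed as well (all regions 44.9%), 31 higher in 18 genes and 14 lower in 11 (all regions 23.5% and 21.4%). The median log2 ratio of the members was 0.42 in NC and 0.49 in KD, beside 0.13 and 0.23 over all tested regions. These comparisons share no library. Of the regions higher in IP, 16 were called in both (64.0% of the NC and 51.6% of the KD calls), and of those lower, 14 were (70.0% and 100%). Over all tested regions these shares were 70.2% and 67.9% for higher and 73.5% and 82.3% for lower. No member region was called in opposite directions, beside 11 of all tested regions. The split depended on scaling: by library size alone 32 were higher and 12 lower in NC and 40 and 8 in KD, while the median of all tested regions moved to 0.42 and 0.40.

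The families differed in their counts. The F-box genes had 7 higher and 1 lower of 18 tested regions in NC and 9 and 0 in KD. FBXL19 supplied several of the higher calls in NC, in part from overlapping NC and KD peaks. The overlapping peaks of FBXL14 had near-equal NC ratios (log2 2.17 and 2.11). The TRIM genes had 6 and 2 of 23, then 7 and 0. The calls in KD included both TRIM14 regions on the NANS strand and overlapping peaks of TRIM44. The RNF genes had 0 and 5 of 14, then 2 and 3. The E2 genes had 1 and 5 of 15, then 3 and 5. The USP genes had 11 and 7 of 28, then 10 and 6, but 6 of the 11 and 4 of the 10 lay in USP35, 4 and 2 of them on the GAB2 strand. By library size alone, the E2 genes had 3 higher and 3 lower in NC and 3 and 4 in KD, and the RNF genes 2 and 3, then 2 and 1. The split of their calls in NC thus changed with this scaling. With DESeq2, 28.6% of 7 E2 calls and 0% of 3 RNF calls in NC were higher. Only the calls leaned lower: the median log2 ratio in NC was 0.38 for E2 and 0.05 for RNF. The F-box genes then had 7 and 0, then 10 and 0, and the TRIM genes 9 and 0, then 10 and 0. Counts also differed by position. Of 48 tested member regions in the first decile of a gene, 16 were higher and 7 lower in NC and 18 and 4 in KD, with median log2 ratios of 0.69 and 0.65. Of all regions in that decile, 29.2% were higher and 15.03% lower in NC and 29.1% and 14.6% in KD, with medians of 0.49 and 0.51. Of 20 member regions in the last decile, 1 was higher and 6 lower in NC, and 4 and 4 in KD, with medians of 0.07 and 0.02. Of all regions there, 19.1% were higher and 25.7% lower in NC and 20.6% and 23.5% in KD. The differences between families and between positions were not tested.

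**Figure D2:**
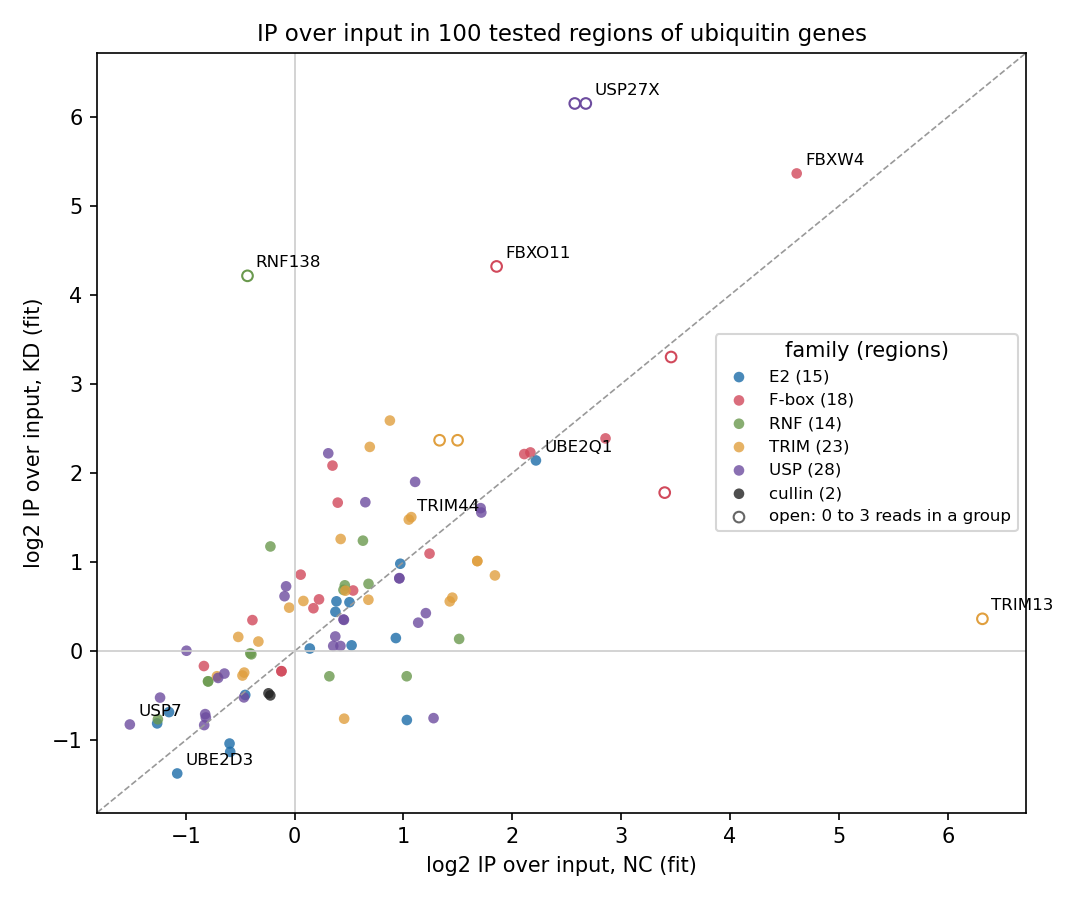
Log2 of IP over input in NC (x axis) and in KD (y axis) for the 100 tested regions, coloured by family; open symbols have 0 to 3 reads in a group, and the dashed line marks equal values. FBXW4 stands apart at 4.61 and 5.37, and UBE2D3, UBE2J2, RNF19A and USP7 lie below 0 on both axes.

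Knockdown was compared with control in input, which follows RNA level, and in IP. In input, 33 of 100 member regions passed (all regions 39.8%), 16 higher in KD in 8 genes and 17 lower in 11 genes (all regions 17.9% and 21.9%). In IP, 30 passed (all regions 41.0%), 20 higher in 12 genes and 10 lower in 7 (all regions 20.9% and 20.1%). Without NC IP replicate 2, the 30 fell to 18. Member medians were 0.07 in input and 0.01 in IP, beside -0.01 and 0.05 over all regions. The IP median was -0.04 by library size alone and -0.07 with DESeq2. Of the regions higher in KD, 15 were called in input and in IP (93.8% of the input and 75% of the IP calls), and of those lower, 6 were (35.3% and 60.0%). Over all tested regions these shares were 73.8% and 63.4% for higher and 70.7% and 76.7% for lower. The 15 belonged to UBE2H, RNF19A, TRIM33, USP2, USP8, CUL7 and the GAB2 strand at USP35, and the 6 to FBXW4, USP1, USP27X and USP9X. By family, the USP genes had 8 higher and 10 lower of 28 in input, and 9 and 8 in IP. The F-box genes had 0 and 1 of 18 in input and 1 and 1 in IP. The E2 genes had 3 and 0, then 3 and 1, the RNF genes 1 and 4, then 1 and 0, and the TRIM genes 2 and 2, then 4 and 0. In bulk RNA, fewer cells that express a gene and less RNA per cell cannot be told apart.

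**Figure D3:**
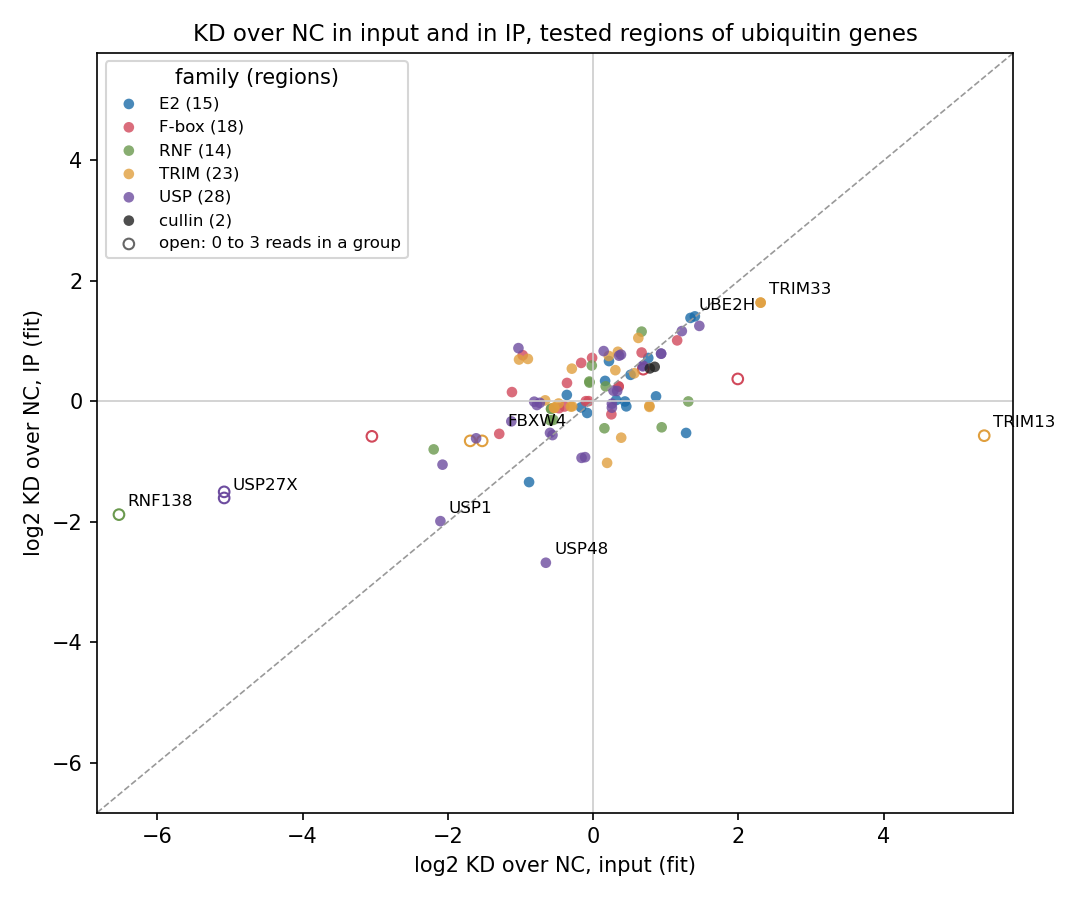
Log2 of KD over NC in input (x axis) and in IP (y axis) for the 100 tested regions, coloured by family; open symbols have 0 to 3 reads in a group. UBE2H, RNF19A, TRIM33 and USP2 lie above 0 on both axes and USP1 at -2.10 and -1.99.

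Among the E2 enzymes, UBE2Q1 was the member enriched in both conditions. Its region reaches over the end of the gene body (GRCh38 chr1:154558543-154559028), with 120 of 486 bases inside it, and the strand of the gene was not known here. It had 13.6, 7.58 and 4.62 CPM in the NC IN libraries and 56.8, 33.6 and 32.1 in NC IP. KD IN had 14.2, 11.5 and 11.96 CPM and KD IP 49.6, 68.7 and 48.4. Every IP library lay above every input library of its condition. The ratio was 4.65-fold in NC (log2 2.22 ± 0.39 SE, adjusted p = 5.4e-05) and 4.41-fold in KD (2.14 ± 0.36, adjusted p = 2.7e-05), and neither input nor IP differed between KD and NC past the threshold.

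UBE2D3, an E2 that works with many RING ligases, stood on the other side. Its region in the sixth decile (chr4:102827437-102827655) had 404, 358 and 267 CPM in NC IN and 158, 172 and 159 in NC IP, then 462, 386 and 435 in KD IN and 156, 185 and 153 in KD IP. All IP libraries were below all input libraries, by 2.11-fold in NC (log2 -1.08 ± 0.14, adjusted p = 1.0e-06) and 2.59-fold in KD (-1.37 ± 0.14, adjusted p = 2.5e-08). UBE2J2, an E2 of the endoplasmic reticulum membrane, was also lower in IP although its peak spans the annotated start shown above. It had 208, 110 and 163 CPM in NC IN, 94.4, 58.5 and 47.2 in NC IP, 170, 211 and 182 in KD IN and 114, 102 and 105 in KD IP. It was 2.40-fold lower in NC (log2 -1.26 ± 0.22, adjusted p = 4.9e-05) and 1.75-fold in KD (adjusted p = 0.0030). Its IP level was 1.59-fold higher in KD (adjusted p = 0.016), a call lost without NC IP replicate 2, NC IP replicate 3 or KD IP replicate 1.

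UBE2H, the E2 of the CTLH ligase complex, differed most between conditions in this family. Its first-decile region (chr7:129952600-129952960) had 32.5, 31.6 and 23.1 CPM in NC IN and 60.9, 84.1 and 76.1 in KD IN, with 42.4, 41.7 and 39.6 in NC IP and 124, 96.6 and 104 in KD IP. The KD libraries were above the NC libraries in both, by 2.53-fold in input (log2 1.34 ± 0.24, adjusted p = 6.7e-05) and 2.61-fold in IP (1.39 ± 0.20, adjusted p = 3.7e-06). IP exceeded input there by log2 0.50 in NC (adjusted p = 0.087) and 0.55 in KD (adjusted p = 0.026, lost without KD IN replicate 1 or 3 or KD IP replicate 1). A second UBE2H region in the last decile went the other way, 2.22-fold lower in IP in NC (log2 -1.15 ± 0.27, adjusted p = 0.00096). Between conditions this region had a log2 difference of -0.36 in input (adjusted p = 0.29), and the difference between the UBE2H regions was not tested.

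UBE2Z, an E2 charged by the E1 enzyme UBA6, had a last-decile region with 121, 123 and 105 CPM in KD IN and 46.9, 73.7 and 49.04 in KD IP, 2.05-fold lower in IP (log2 -1.04 ± 0.19, adjusted p = 0.00011). In NC it was -0.60 ± 0.20 (adjusted p = 0.018), a call lost by library size alone, without NC IP replicate 1 or 2 and without any NC IN library. UBE2G1, which lengthens chains on substrates of cullin ligases, was lower in KD IP (log2 -1.34 ± 0.50, adjusted p = 0.033), and the call was lost when any 1 IP library was left out. UBE2D2, UBE2J1, UBE2M and UBE2R2 had tested regions without a call.

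Among the subunits of cullin ligases, CUL7, a scaffold that assembles with FBXW8, was enriched in neither condition. Its region in the ninth decile had 37.7, 45.5 and 42.8 CPM in NC IN and 34.5, 39.2 and 34.0 in NC IP, then 87.3, 74.6 and 64.2 in KD IN and 54.4, 51.3 and 54.6 in KD IP. The KD libraries lay above the NC libraries in both, by 1.80-fold in input (log2 0.85 ± 0.23, adjusted p = 0.0049) and 1.49-fold in IP (0.57 ± 0.22, adjusted p = 0.036). The IP call was lost by library size alone (adjusted p = 0.052), with DESeq2 and without any 1 IP library.

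FBXW4 had the highest ratio in both conditions of all tested members with more than 3 reads in each group. The region covers the start of the gene (chr10:101694456-101695205), and its first bases are shown above. NC IN had 40.9, 35.4 and 35.8 CPM and NC IP 998, 880 and 877. KD IN had 18.3, 15.3 and 11.96 CPM and KD IP 736, 591 and 569. IP was 24.5-fold above input in NC (log2 4.61 ± 0.16, adjusted p = 6.5e-17) and 41.2-fold in KD (5.37 ± 0.18, adjusted p = 3.1e-17). Between conditions both kinds of library were lower in KD with no overlap, the input by 2.45-fold (log2 -1.29 ± 0.24, adjusted p = 0.00012) and IP by 1.45-fold (-0.54 ± 0.11, adjusted p = 0.00047).

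FBXL14, an F-box protein that targets the transcription factor SNAI1, was enriched to the same degree in both conditions. Its first-decile region (chr12:1594135-1594462) began 380 bases after the annotated start. It had 17.8, 10.1 and 15.03 CPM in NC IN, 87.0, 65.4 and 42.8 in NC IP, 6.09, 20.1 and 15.2 in KD IN and 54.9, 79.7 and 61.5 in KD IP. The ratios were 4.49-fold (log2 2.17 ± 0.36, adjusted p = 2.1e-05) and 4.70-fold (2.23 ± 0.35, adjusted p = 1.4e-05). FBXL19, which binds CpG islands through a CXXC zinc finger, had enriched regions at both ends. The one in the last decile (chr16:30947350-30947947) had 13.6, 0 and 16.2 CPM in NC IN, 88.0, 75.3 and 60.4 in NC IP, 17.3, 9.56 and 9.79 in KD IN and 73.1, 60.2 and 59.6 in KD IP. It was 7.24-fold higher in IP in NC (log2 2.86 ± 0.42, adjusted p = 4.1e-06) and 5.24-fold in KD (2.39 ± 0.40, adjusted p = 2.7e-05). Near its 5′ end, a stretch covered by an NC peak and by a KD peak inside it passed with 1 or 2 input reads in a group. The ratio over the NC peak in NC was 11.8 (95% counting interval 3.09 to 101) and over the KD peak in KD 11.3 (2.93 to 96.2), a call lost without KD IN replicate 2 or 3.

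FBXO11, a ligase subunit for BCL6, had 46 reads in KD IP and 1 in KD IN, a ratio of 24.7 (4.22 to 997, adjusted p = 0.0013). Its NC ratio was log2 1.86 ± 0.69 (adjusted p = 0.030), lost with IP and IN of one number as a block (adjusted p = 0.10), without NC IP replicate 1 or 2 and without NC IN replicate 1 or 2. FBXO45, which works with the ligase MYCBP2, had a log2 ratio of 2.08 in KD (adjusted p = 0.017) and 0.35 in NC (adjusted p = 0.69). FBXO41 was higher in IP in KD (0.86 ± 0.26, adjusted p = 0.0085, lost without KD IN replicate 2) and higher in KD IP than in NC IP (0.64 ± 0.24, adjusted p = 0.035). The last was not called with DESeq2 (adjusted p = 0.062), nor without NC IP replicate 2 or 3 or any KD IP library. FBXO30, whose peak begins exactly at the annotated start in both sets, had 124 reads in NC IN, 223 in NC IP, 180 in KD IN and 285 in KD IP, and no call in any comparison.

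Of 14 tested RNF regions, 7 had a log2 ratio above 0 in NC and 7 in KD. RNF19A, a RING-between-RING ligase, had a last-decile region with 188, 150 and 196 CPM in NC IN, 67.9, 66.6 and 90.0 in NC IP, 227, 309 and 314 in KD IN and 146, 171 and 184 in KD IP. No 2 groups so compared overlapped. IP was 2.39-fold below input in NC (log2 -1.26 ± 0.17, adjusted p = 1.8e-06) and 1.70-fold in KD (adjusted p = 0.00035). KD was 1.59-fold above NC in input (log2 0.67 ± 0.16, adjusted p = 0.0021) and 2.23-fold in IP (1.16 ± 0.17, adjusted p = 3.9e-06). RNF187, a ligase linked to AP-1 coactivation, had 494, 514 and 463 CPM in NC IN, 273, 272 and 303 in NC IP, 384, 293 and 308 in KD IN and 288, 247 and 243 in KD IP at its 5′ end. It was 1.73-fold lower in IP in NC (log2 -0.79 ± 0.12, adjusted p = 8.3e-06), and its input was 1.49-fold lower in KD (-0.58 ± 0.12, adjusted p = 0.00058). Its ratio in KD was -0.34 ± 0.12 (adjusted p = 0.029), a call lost by library size alone and, for its overlapping NC peak, without KD IN replicate 1 or KD IP replicate 2 or 3.

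RNF138, a ligase of DNA end resection, had 7.33, 11.4 and 6.93 CPM in NC IN and no read in the KD IN libraries. Against a floor of 3 reads over the group its input was at least 8.29-fold lower in KD (adjusted p = 0.0014). In IP the difference was log2 -1.88 (adjusted p = 0.054). RNF213, a large ligase linked to moyamoya disease, was lower in KD input as well (log2 -2.20 ± 0.71, adjusted p = 0.016), a call lost without NC IN replicate 3 or KD IN replicate 1 or 3. RNF220 had 2 sets of regions in its last decile. One had a log2 ratio of -0.41 in NC (adjusted p = 0.031) and -0.02 in KD. The other had 0.46 in NC and 0.74 in KD (adjusted p = 0.022). RNF123, with most peaks of any member, had 1 tested region of 7, without a call, and none of the 5 RNF10 regions had enough reads.

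TRIM44 held the most reads of all members. It lacks the RING of most TRIM proteins. The KD-set peak (chr11:35662774-35663705) had 1758, 1505 and 1792 CPM in NC IN, 3578, 3328 and 3556 in NC IP, 1140, 1153 and 1195 in KD IN and 3224, 3114 and 3377 in KD IP. Every IP library was above every input library, by 2.07-fold in NC (log2 1.05 ± 0.09, adjusted p = 2.8e-09) and 2.79-fold in KD (1.48 ± 0.10, adjusted p = 8.4e-12). The input was 1.45-fold lower in KD with no overlap (log2 -0.54 ± 0.09, adjusted p = 6.7e-05), while IP differed by -0.11 ± 0.09 (adjusted p = 0.38). Few of these reads lay at the annotated start shown above. The NC peak over the first 182 bases, chr11:35662774-35662955, averaged 38.6 CPM in NC IN and 29.9 in KD IP, with a ratio of log2 -0.33 in NC (adjusted p = 0.46). The other NC peak, chr11:35663074-35663645, had log2 1.07. TRIM44 and FBXW4 held a large part of the counts summed over member regions. Overlapping NC and KD peaks each enter that sum in full, so reads under both, as at TRIM44, count more than once. With both genes, the share of this sum in the counts of all regions, summed alike, was 0.932% ± 0.045 (SD, n = 3) in NC IN. It was 1.55% ± 0.08 in NC IP, 0.895% ± 0.024 in KD IN and 1.52% ± 0.0049 in KD IP. Without them it was 0.629% and 0.687% in NC and 0.675% and 0.772% in KD.

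TRIM24, a chromatin reader and p53 ligase, was enriched in KD at its 5′ end. NC IN had 11.5, 16.4 and 12.7 CPM, NC IP 22.8, 21.8 and 20.8, KD IN 7.11, 2.87 and 11.96 and KD IP 26.7, 33.9 and 46.6. The KD ratio was 4.90-fold (log2 2.29 ± 0.44, adjusted p = 0.00015). In NC the log2 ratio was 0.69 (adjusted p = 0.18), although the NC libraries did not overlap either. TRIM28, the corepressor of KRAB zinc finger proteins, had the other pattern, with 14.7, 22.7 and 24.3 CPM in NC IN, 65.2, 47.9 and 54.1 in NC IP, 44.7, 41.1 and 18.5 in KD IN and 63.0, 50.8 and 45.3 in KD IP. Its ratio was 2.73-fold in NC (log2 1.45 ± 0.32, adjusted p = 0.00061) and log2 0.60 in KD (adjusted p = 0.094). Neither gene's change between conditions passed, as given below.

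TRIM25, a ligase of RIG-I signalling, was higher in NC IP (log2 1.84 ± 0.71, adjusted p = 0.036), a call lost with either block, without NC IP replicate 1 or 2 and without NC IN replicate 1 or 3. The TRIM13 region, with 22 of its 410 bases inside the gene body, had 39 reads in NC IP and none in NC IN, at least 6.68-fold higher (adjusted p = 0.018), but 16.4 of its 16.4, 3.74 and 1.26 CPM lay in replicate 1, and without it the call was lost (adjusted p = 0.12). TRIM52 was lower in NC IP (log2 -0.48 ± 0.14, adjusted p = 0.0074), lost by library size alone and without NC IN replicate 1 or 3. The region in TRIM14 on the strand of NANS had a ratio of 5.55 in KD (1.73 to 28.4, adjusted p = 0.037), a call lost with either block and without KD IN replicate 1 or 3. TRIM33, a ligase of SMAD4, had 7.33, 1.26 and 0 CPM in NC IN and 8.12, 16.3 and 21.7 in KD IN, with 14.3, 6.85 and 8.18 in NC IP and 18.7, 50.3 and 23.6 in KD IP. It was 4.94-fold higher in KD input (log2 2.31 ± 0.75, adjusted p = 0.017) and 3.12-fold in KD IP (1.64 ± 0.52, adjusted p = 0.014). The input call was lost without NC IN replicate 3 or KD IN replicate 3, and the IP call without NC IP replicate 2 or 3 or KD IP replicate 2 (adjusted p = 0.19 for the last). TRIM35 was 2.08-fold higher in KD IP (log2 1.05 ± 0.31, adjusted p = 0.0079) and TRIM56, a ligase of innate immune signalling, 1.77-fold (0.82 ± 0.25, adjusted p = 0.0096). Both calls were lost without NC IP replicate 2.

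Among the deubiquitinases, USP35 had a sense region in the fifth decile of the gene (chr11:78209585-78210242) with 45.0, 24.0 and 45.1 CPM in NC IN, 157, 92.1 and 129 in NC IP, 56.9, 49.7 and 38.1 in KD IN and 139, 120 and 169 in KD IP. IP was above input in all libraries, by 3.28-fold in NC (log2 1.72 ± 0.25, adjusted p = 3.1e-06) and 2.94-fold in KD (1.56 ± 0.23, adjusted p = 6.6e-06). Neither input nor IP differed between KD and NC past the threshold. The regions on the strand of GAB2, an adaptor of receptor signalling, differed from it in this. The one at chr11:78217891-78218789 was 1.91-fold higher in KD input (log2 0.94 ± 0.15) and 1.73-fold in KD IP (0.79 ± 0.13).

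USP11, a nuclear deubiquitinase of BRCA2, was enriched at its start in NC. NC IN had 64.9, 61.9 and 74.0 CPM and NC IP 161, 146 and 157. KD IN had 77.2, 52.6 and 50.02 CPM and KD IP 79.0, 88.1 and 74.5. The NC ratio was 2.31-fold (log2 1.21 ± 0.19, adjusted p = 8.1e-06) and the KD ratio log2 0.43 (adjusted p = 0.069). The IP level was 1.92-fold lower in KD with no overlap (log2 -0.94 ± 0.17, adjusted p = 8.6e-05), and the input differed by -0.16 (adjusted p = 0.57). USP27X, a relative of the histone deubiquitinase USP22, rested on few reads. It had 2.10, 0 and 6.93 CPM in NC IN, 25.99, 17.4 and 16.4 in NC IP, no read in KD IN and 6.40, 7.47 and 5.59 CPM in KD IP. It was 6.39-fold higher in IP in NC (log2 2.67 ± 0.71, adjusted p = 0.0036; log2 4.09 without NC IN replicate 3) and at least 6.44-fold in KD (adjusted p = 0.0017). Its KD levels were lower in IP (log2 -1.60 ± 0.58, adjusted p = 0.029) and at least 3.01-fold lower in input (adjusted p = 0.025). The IP call was lost without any 1 of the 6 IP libraries, and the input call without NC IN replicate 3 or any KD IN library. USP39, a splicing factor without deubiquitinase activity, was 3.74-fold higher in IP in KD (log2 1.90 ± 0.39, adjusted p = 0.00028) and higher in NC (1.11 ± 0.35, adjusted p = 0.011). Its input was lower in KD (log2 -1.13, adjusted p = 0.038), a call lost by library size alone and without NC IN replicate 2 or 3 or KD IN replicate 1. USP14, a deubiquitinase bound to the proteasome, was higher in IP in KD (2.22 ± 0.82, adjusted p = 0.030), a call lost with either block and without KD IN replicate 1 or 3.

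Lower ratios were found for several well-studied deubiquitinases. USP7, which acts on MDM2 and p53, had 218, 222 and 236 CPM in NC IN, 90.2, 64.1 and 81.8 in NC IP, 238, 293 and 215 in KD IN and 165, 176 and 78.8 in KD IP. IP was 2.85-fold below input in NC (log2 -1.51 ± 0.22, adjusted p = 2.9e-06) and 1.77-fold in KD (-0.82 ± 0.20, adjusted p = 0.0019). KD IP was 1.78-fold above NC IP (0.83 ± 0.21, adjusted p = 0.0025), with KD IP replicate 3 inside the NC range. USP16, a histone H2A deubiquitinase, had 122, 133 and 127 CPM in NC IN, 59.4, 54.8 and 47.2 in NC IP, 65.0, 79.3 and 78.3 in KD IN and 60.8, 49.8 and 44.1 in KD IP. It was 2.35-fold lower in IP in NC (log2 -1.24 ± 0.19, adjusted p = 8.0e-06), and its input was 1.71-fold lower in KD (-0.77 ± 0.19, adjusted p = 0.0023) while its IP was not (-0.06). USP8, which sorts receptors at endosomes, had 317, 354 and 371 CPM in NC IN, 213, 212 and 215 in NC IP, 439, 459 and 436 in KD IN and 305, 395 and 384 in KD IP. It was 1.63-fold lower in IP in NC (log2 -0.70 ± 0.12, adjusted p = 3.9e-05), and KD was above NC by 1.69-fold in IP (0.76 ± 0.12, adjusted p = 1.1e-05) and by log2 0.36 in input (adjusted p = 0.021, lost without NC IN replicate 1).

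USP1, the deubiquitinase of FANCD2 and PCNA, differed between conditions in input and in IP. Its last-decile region had 246, 259 and 188 CPM in NC IN and 64.0, 25.8 and 72.9 in KD IN, with 104, 125 and 164 in NC IP and 37.9, 26.9 and 34.1 in KD IP. KD was 4.30-fold lower in input (log2 -2.10 ± 0.26, adjusted p = 3.4e-07) and 3.97-fold in IP (-1.99 ± 0.25, adjusted p = 5.1e-07), with no overlap. IP lay below input by log2 -0.82 in NC (adjusted p = 0.0045; 0.058 by library size alone). USP2 went the other way, with 27.2, 58.1 and 48.5 CPM in NC IN, 135, 118 and 55.5 in KD IN, 23.9, 39.2 and 33.4 in NC IP and 87.5, 68.2 and 59.6 in KD IP. It was 2.33-fold higher in KD input (log2 1.22 ± 0.31, adjusted p = 0.0024), where 1 library overlapped, and 2.24-fold in IP (1.17 ± 0.29, adjusted p = 0.0021), where none did.

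USP9X, a large X-linked deubiquitinase, had regions at both ends that differed. The first-decile region had 126, 118 and 121 CPM in NC IN, 135, 100 and 110 in NC IP, 50.8, 61.2 and 96.8 in KD IN and 107, 103 and 135 in KD IP. Its input was 1.76-fold lower in KD (log2 -0.81 ± 0.21, adjusted p = 0.0036), while IP differed by -0.01. The log2 ratio of IP to input was -0.08 for NC and 0.73 ± 0.20 for KD (adjusted p = 0.0055, lost without KD IN replicate 1). The region in the ninth decile had 354, 382 and 354 CPM in NC IN, 170, 236 and 208 in NC IP, 250, 291 and 197 in KD IN and 136, 148 and 131 in KD IP. There the log2 ratio was -0.83 in both conditions, and KD was below NC by -0.56 in input (adjusted p = 0.0036) and -0.56 in IP (adjusted p = 0.0032). Without KD IN replicate 3 the input call was lost (-0.35). USP5, which takes apart free ubiquitin chains, was lower in KD input (-2.07 ± 0.72, adjusted p = 0.024) and USP48 in KD IP (-2.68 ± 0.89, adjusted p = 0.017). The first call was lost without NC IN replicate 1 or KD IN replicate 1 or 2, and the second without NC IP replicate 2 or KD IP replicate 2 or 3.

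**Figure D4:**
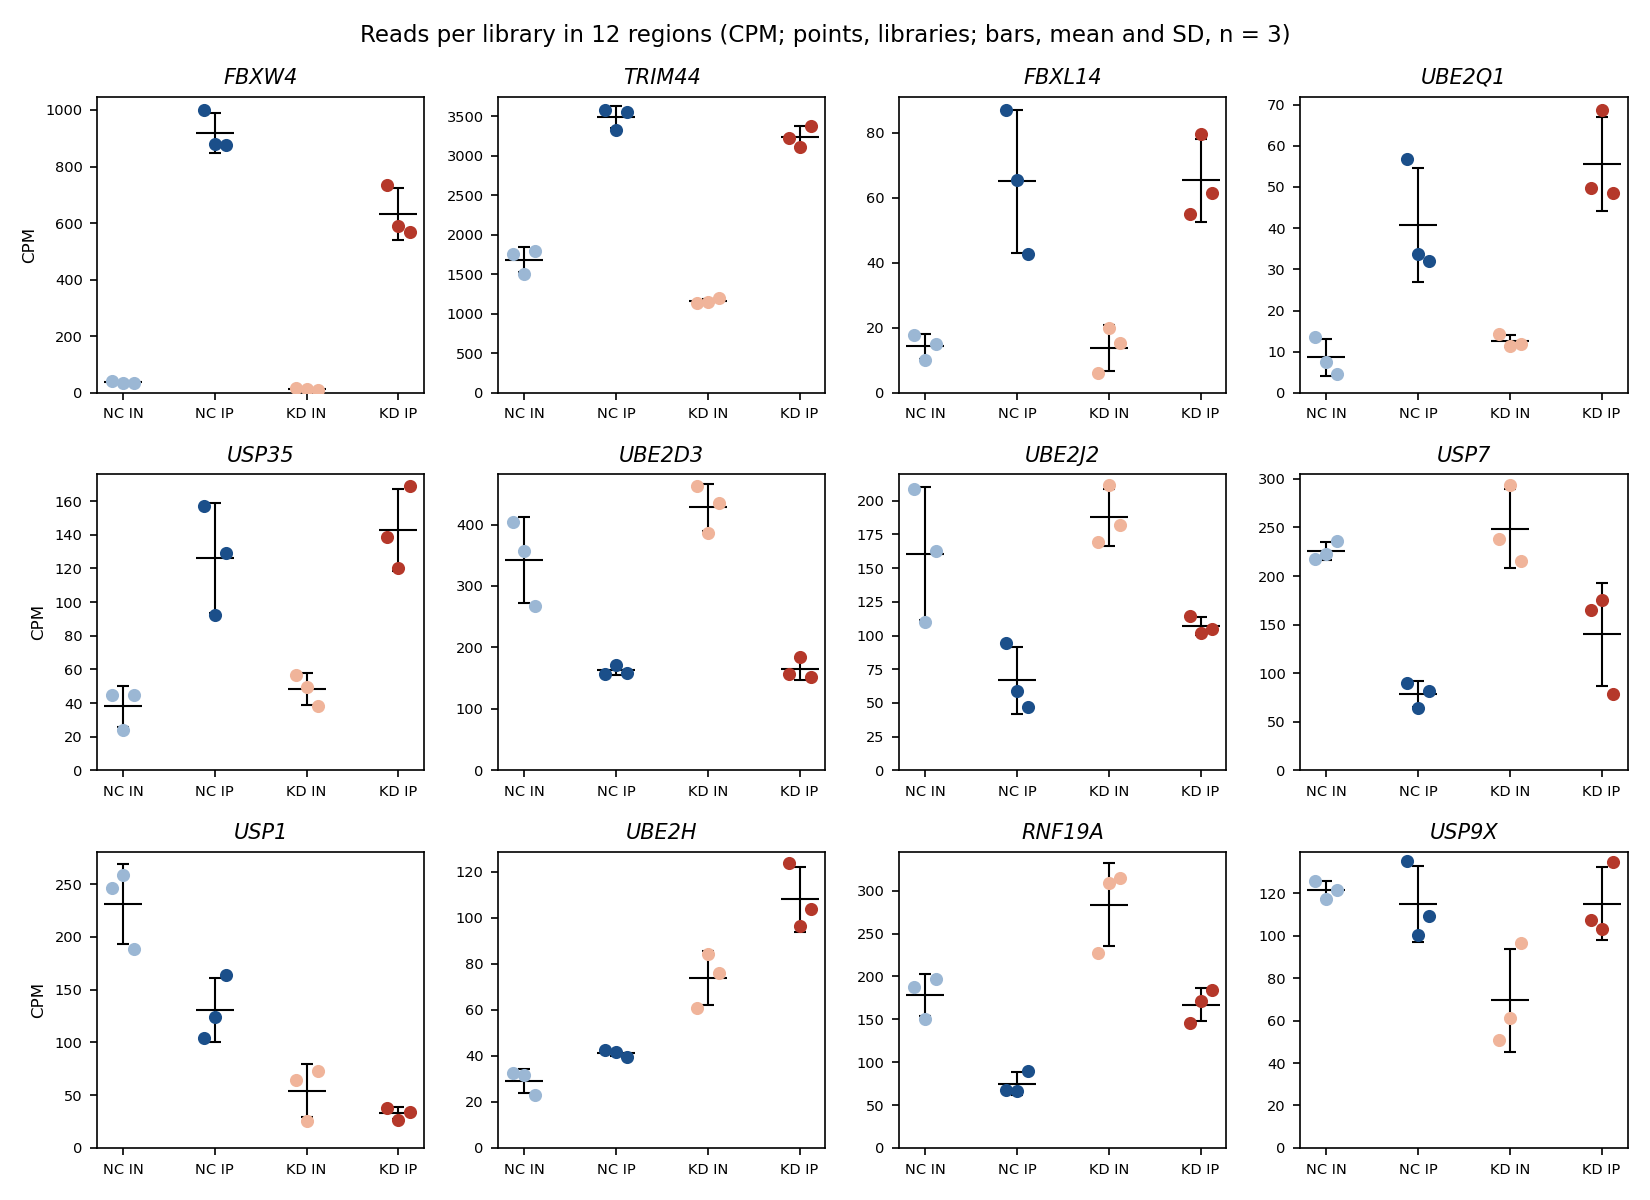
CPM of every library for 12 member regions in the 4 groups; points are libraries, and bars mark the mean with its SD (n = 3), on linear axes from 0. IP lies above input in both conditions for FBXW4, TRIM44, FBXL14, UBE2Q1 and USP35 and below it for UBE2D3, UBE2J2, USP7 and RNF19A, and USP1 is lower and UBE2H higher in both KD groups.

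The change in enrichment, the KD ratio of IP to input against the NC ratio, asked whether METTL1 knockdown altered the m7G signal beyond RNA level. It passed in none of the 100 member regions and in 0.0% of all tested regions with edgeR. At an unadjusted p under 0.05 there were 21 member regions and 610 of 5113 in all. DESeq2 called 0 member regions and 21 of all. The median change of the members was log2 0.13 (all regions 0.08), but 0.0056 (all regions -0.04) by library size alone and 0.04 (all regions -0.01) with DESeq2. The smallest p values belonged to TRIM44 (0.43 ± 0.13, adjusted p = 0.22), USP11 (-0.82 ± 0.26, adjusted p = 0.24), USP9X at its 5′ end (0.81 ± 0.28, adjusted p = 0.28) and FBXW4 (0.75 ± 0.27, adjusted p = 0.29). USP16 (0.71 ± 0.27), RNF187 (0.46 ± 0.17), TRIM24 (1.60 ± 0.62) and UBE2D3 (-0.54 ± 0.22) followed, with adjusted p between 0.31 and 0.35. The UBE2D3 value is for a KD peak inside the region described above, with log2 ratios of -0.59 in NC and -1.13 in KD. The wider NC peak had -1.08 and -1.37, which lie closer together. The USP11 value is for its NC peak (log2 1.14 in NC and 0.32 in KD), which overlaps the KD peak described above. By the estimates, the input of TRIM44, FBXW4, USP9X, USP16 and RNF187 was lower in KD by more than the IP, and the IP of USP11 was lower by more than its input. These values show sizes and not changes, since none passed.

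**Figure D5:**
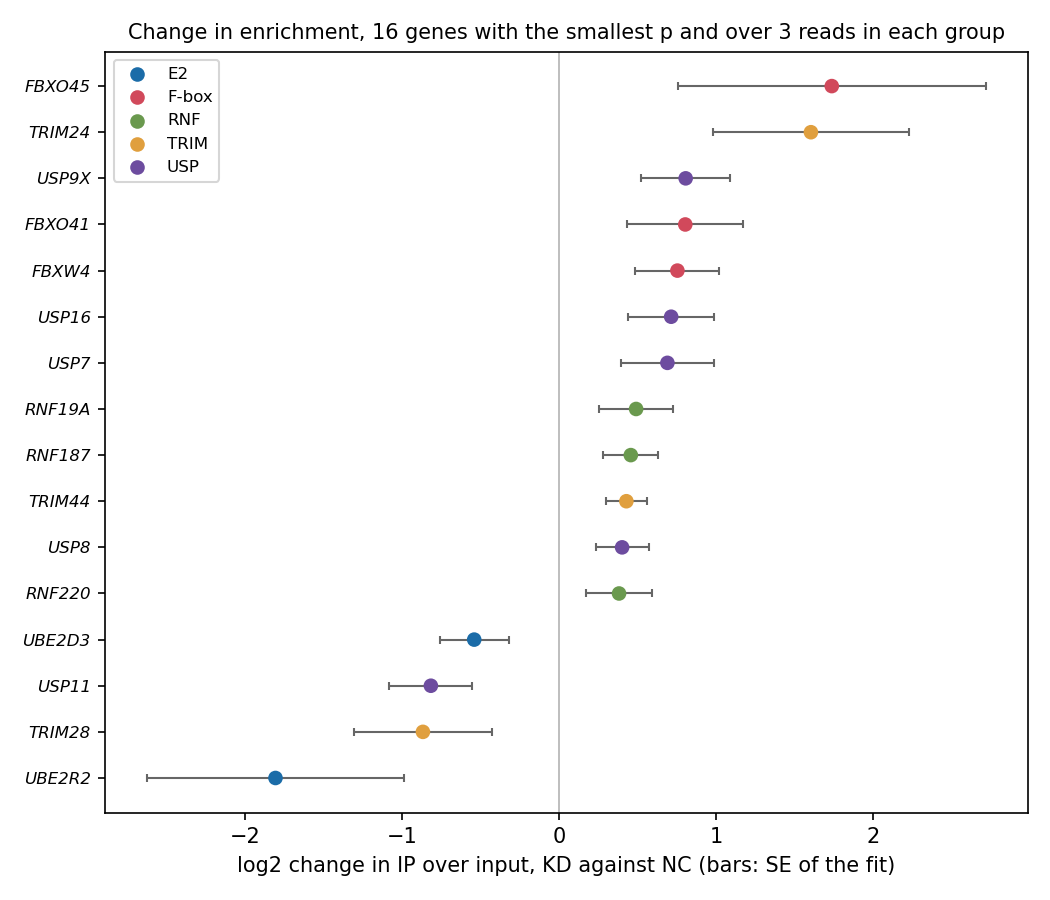
Change in log2 IP over input, KD minus NC, with its SE, for the 16 member genes with the smallest unadjusted p among regions with more than 3 reads in every group. Of these, 12 lie above 0 and 4 (UBE2D3, USP11, TRIM28, UBE2R2) below, and none passed the threshold.

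The authors' deposited table gives its own change between the conditions, called at an adjusted p under 0.05 in 78 of 9958 regions (0.783%). The authors' deposited table calls a single member region, in FBXO3 (chr11:33742916-33742977), with a log2 change of 10.33 and an adjusted p of 0.0456. Its fold enrichment was 9.87, but the authors' peak call there had an adjusted p of 0.405. The region had 26 reads over the NC IN libraries, 2 in NC IP, 0 in KD IN and 6 in KD IP, too few to be tested here.

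The other genes of the pathway were taken from lists, and overlapping NC and KD peaks count separately. Of all tested regions, 22.7% were higher and 24.0% lower in IP over input in NC, and 23.5% and 21.4% in KD. In KD against NC the shares were 17.9% and 21.9% in input and 20.9% and 20.1% in IP. Of 17 E1 and ubiquitin-like genes 9 had a region, and of 12 tested regions 1 was higher and 4 lower in IP in NC and 0 and 5 in KD, with 0 and 6 in KD input and 0 and 2 in KD IP. NEDD8, the modifier that activates cullins, supplied the 4 lower calls in NC, from peaks with identical counts, with log2 -0.88 in NC and -0.74 in KD. These 4 peaks were also among the lower calls in KD and in KD input (log2 -0.29). SAE1, a subunit of the SUMO E1, was lower in KD input (-0.69) and IP (-1.14). Of 36 cullin partners 19 had a region, and their 17 tested regions had 3 higher and 4 lower in IP over input in each condition, 5 and 4 in KD input and 2 and 6 in KD IP. VHL, COPS6 and GPS1 supplied the 6, each from an NC and a KD peak with the same or nearly the same values. SKP1, the adaptor that joins F-box proteins to a cullin, was lower in IP in NC (-1.13) and KD (-1.37) and higher in KD input (0.59). COPS6, of the signalosome that removes NEDD8 from cullins, was lower in KD input (-1.39) and IP (-0.84). The 9 tested regions of other HECT and RING-between-RING ligases had 5 higher and 2 lower in KD input and 1 and 2 in KD IP, with 2 and 0 in NC IP over input and 0 and 2 in KD. The 14 of other RING and U-box ligases had 4 higher and 1 lower in NC IP over input, and 0 calls in KD with edgeR (5 at an unadjusted p under 0.05), then 2 and 2 in KD input and 4 and 0 in KD IP. The 14 of other deubiquitinases had 2 higher and 3 lower in NC and 2 and 0 in KD, then 2 and 1 in KD input and 4 and 1 in KD IP. The 34 of the proteasome and ubiquitin shuttles had 9 higher and 14 lower in NC and 9 and 12 in KD, then 3 and 4 in KD input and 5 and 2 in KD IP. That was 67.6% called in NC and 61.8% in KD, beside 46.7% and 44.9% of all tested regions. It was 20.6% in KD input and in KD IP, beside 39.8% and 41.0%.

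The remaining 113 member regions had between 3 and 89 reads over the 12 libraries, with a median of 25, and 53 genes had no tested region. These include UBE3A, the HECT ligase of Angelman syndrome, with 0 reads in NC IN, 7 in NC IP, 8 in KD IN and 12 in KD IP, and UBE3B, with 3, 0, 2 and 8. They also include FBXW7, the ligase subunit for cyclin E and MYC, FBXO32, RNF2, RNF4, RNF7, TRIM5, TRIM32, UBE2K and UBE2W. These regions were not tested here.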

How the data were processed

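The study's 12 libraries (input and IP of NC and of KD, 3 each) were described by 1 table of 9958 peak regions. Per the submitters' processing notes, trimming used fastp 0.23.4 and the build is GRCh38; the aligner, peak caller and counter are not given in the sources used here. The authors deposited raw read counts per region and library without normalization. They also deposited a fold enrichment (a ratio) per peak, p-values with their adjusted values, and a log2 change between conditions; these were used only to rank peaks and for FBXO3.

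Regions were named by overlap of at least 1 base with RefSeq gene bodies (GRCh38.p14), and strand came from the RefSeq start windows. Counts were fitted on 4 group means over all 12 libraries with edgeR 4.0.16 in R 4.3.3 (filterByExpr with minimum count 10 and total 15, TMM, quasi-likelihood F test, 8 residual degrees of freedom, two-sided). This kept 5113 regions, and p values were adjusted over all of them. CPM uses TMM-scaled totals of the tested regions. A fold against 0 reads uses a floor of 3 reads over the group, and 1 to 3 reads give a ratio with a 95% interval; both cover counting error only, since reads are not independent molecules. Families, lists and members were chosen with earlier results of these data known. For each comparison and family, the rule named up to 3 regions at each end among those past the threshold whose libraries did not overlap, 1 per gene, besides regions with 0 to 3 reads in a group, the 5 genes with most peaks and, where none passed, the 8 smallest p; USP2 in input, USP7 in IP, USP9X and USP11 in some comparisons and genes without a call were chosen after their values were seen. Of the regions so named, 1 is not reported here. The script was tested on simulated data. Alternatives comprised DESeq2 1.42.0, library size alone, other filters and thresholds, blocks, fewer regions per gene and leaving out each library. Same-numbered libraries of different groups had correlations of deviations between -0.09 and 0.07. For IN and IP of KD they were 0.051, 0.063 and 0.048, against -0.053 to -0.0004 for different numbers. For IN and IP of NC they were 0.068, 0.024 and -0.019, against -0.064 to 0.045. These values do not settle whether the numbers pair libraries. The main fit did not use them as pairs, and blocks by number were fitted as alternatives.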

Additional observations from a re-analysis of the deposited data

How the results depend on the processing

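Most counts of member regions past the threshold stayed within 1.5 times under the alternatives. With 1 region per gene they were 25 (IP over IN in NC), 23 (in KD), 18 (KD over NC in input) and 19 (in IP), because fewer regions entered. At an adjusted p under 0.01, KD had 28, and with 1 region per overlapping cluster, an alternative chosen after seeing the data, input had 20. Leaving out each library in turn gave 38 to 49 (NC), 36 to 48 (KD), 29 to 37 (input), 18 to 30 (IP, 18 without NC IP replicate 2) and 0 to 0 for the change in enrichment. With the library number as a replicate block the counts were 42, 40, 33, 26 and 0, and with IP and IN of one number as a block 44 and 42 for NC and KD and 0 for the change. Leaving out regions on the opposite strand, also chosen after seeing the data, gave 41, 41, 29 and 26. The share of peaks that overlapped the other set was 28.1% among the upper 50% by fold, where the other set is smaller too. No named region changed direction. Of the named regions' values under settings other than leaving out a library, 505 kept their side of the threshold and 33 did not, and with a library left out 902 did and 91 did not; the cause was not tested. Regions with few reads limit what could be detected.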
